A study of Mus musculus with 6 samples.

Results

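The genes described here are 10 members of the glycolysis and lactate shuttle group, chosen by name, out of 20239 named genes measured in mouse sciatic nerve. They are the hexokinases Hk1 and Hk2, the aldolases Aldoa and Aldoc, the pyruvate kinase Pkm, the lactate dehydrogenase subunits Ldha and Ldhb, and the monocarboxylate transporters Slc16a1, Slc16a3 and Slc16a7. All 10 had a probe set. The nerves came from 3 mutant mice with the genotype DhhCre::Sip1 flox/flox and 3 control mice with the genotype Sip1 flox/flox, all 25 days old, with 1 array per mouse. Sip1 is another name of Zeb2, a zinc finger transcription factor, and both groups carried the floxed allele on both chromosomes. In the mutants a Cre recombinase under the control of the desert hedgehog gene, which is active in the Schwann cell lineage, deletes it. That lineage is also known to give rise to endoneurial fibroblasts, and recombination by cell type was not measured here. The controls carried no Cre, so an effect of Cre itself cannot be told apart from that of the deletion.

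Glycolysis splits glucose into pyruvate, and lactate dehydrogenase converts pyruvate to lactate and back. Monocarboxylate transporters carry lactate with a proton across the cell membrane, and glial cells are known to release lactate that axons can take up and burn, a traffic called the lactate shuttle. Hexokinase, aldolase, lactate dehydrogenase and the transporters each exist as isozymes encoded by separate genes, which differ in the tissues that use them. Skeletal muscle and fat, which surround the sciatic nerve, use the same enzymes heavily.

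Most of the members share a sequence feature in their promoters that was not used to choose them. RefSeq windows of 300 bases, from 250 before to 50 after a start site, were at hand for 9 members, with 15 windows in all. The letters ACGTG or their reverse complement CACGT, the core that hypoxia-inducible factors recognise, occurred in a window of 8 of the 9 members and in 9 of the 15 windows. They occurred in 19.6% of all 32851 windows and in 21.8% of the 27025 genes with a window. Base composition differed as well, with a median GC content of 63.3% in the members' windows against 52.7% in all windows. Of windows with at least 60% GC, 26.5% held the letters, as did 8 of the 9 such windows of the members. A pair of the Aldoa windows overlap and hold the same site, which is counted in each. The palindrome CACGTG holds the letters on both strands and counts as a pair of matches. CACCTG or CAGGTG, an E-box that ZEB proteins can bind, occurred in windows of 2 of the 9 members, Hk1 and Ldha, and in 22.6% of genes. Only these full sequences were searched, so shorter forms of the site, such as the CACCT in the Aldoc stretch printed below, were not counted. The myogenic-type E-box CAGCTG, its own reverse complement, occurred in windows of Aldoa and Pkm and in 18.3% of genes. A match of letters does not show that a factor binds there. The 250 bases before a start site are printed, 5′ to 3′, for Slc16a1, Slc16a3, Ldha and Aldoc, with ACGTG or CACGT in capitals. Slc16a1 and Aldoc are the members that rose in the mutants, as described below. Slc16a3 is a transporter gene that did not pass the test, and Ldha is the member with the most matches.

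Slc16a1 (GRCm38.p6, chr3:104638414-104638663, plus strand): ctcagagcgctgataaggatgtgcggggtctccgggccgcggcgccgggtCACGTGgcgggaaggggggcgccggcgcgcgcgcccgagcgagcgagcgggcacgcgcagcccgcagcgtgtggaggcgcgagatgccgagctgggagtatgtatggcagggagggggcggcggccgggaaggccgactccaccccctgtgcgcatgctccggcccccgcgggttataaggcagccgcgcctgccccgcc

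Slc16a3 (GRCm38.p6, chr11:120948817-120949066, plus strand): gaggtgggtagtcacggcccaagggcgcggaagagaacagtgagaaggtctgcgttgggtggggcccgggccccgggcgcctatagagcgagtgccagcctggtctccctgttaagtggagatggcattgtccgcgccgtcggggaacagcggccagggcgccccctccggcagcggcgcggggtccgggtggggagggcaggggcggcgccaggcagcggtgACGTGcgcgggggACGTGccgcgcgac

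Ldha (GRCm38.p6, chr7:46845554-46845803, plus strand): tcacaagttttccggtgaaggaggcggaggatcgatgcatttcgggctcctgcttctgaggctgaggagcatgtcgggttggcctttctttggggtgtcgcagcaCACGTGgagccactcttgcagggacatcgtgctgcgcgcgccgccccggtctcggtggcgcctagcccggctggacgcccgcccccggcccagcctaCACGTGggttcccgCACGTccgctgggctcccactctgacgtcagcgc

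Aldoc (GRCm38.p6, chr11:78322823-78323072, plus strand): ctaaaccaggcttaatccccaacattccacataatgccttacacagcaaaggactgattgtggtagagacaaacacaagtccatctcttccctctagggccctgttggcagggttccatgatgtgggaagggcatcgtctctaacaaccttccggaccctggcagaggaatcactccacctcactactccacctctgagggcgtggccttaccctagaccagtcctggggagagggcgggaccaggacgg

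In these stretches Ldha held 5 matches on either strand, counting both strands of its palindromes, and Slc16a1 and Slc16a3 held 2 each. Aldoc held 0 before its start, and its match began at base 28 after the start.

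Zeb2 fell in the mutants, reading 10.96, 10.66 and 11.01 against control values of 11.67, 11.57 and 12.02 on the log2 scale (difference −0.88, SE 0.15, limma adjusted p = 0.0137). This call was lost without mutant 1 (difference −0.92, adjusted p = 0.0522). Which part of the gene its probes cover, and whether that lies in the deleted stretch, is not given in the labels. The nerves differed in muscle content within each group. Averaged on the log2 scale, 20 muscle genes that are no glycolytic enzymes read 7.51, 12.38 and 9.78 across mutants 1 to 3, against 7.56, 12.51 and 10.26 across controls 1 to 3. An average of 11 fat cell genes read 10.22, 10.83 and 9.94 (mutants) against 12.01, 11.02 and 9.64 (controls). Mutant 2 and control 2 were thus rich in muscle transcripts and control 1 in fat transcripts, and neither list had a member that passed the test between genotypes, also at an unadjusted p under 0.05 (0 of 20 and 0 of 11, limma). Of 7 measured Schwann cell and myelin markers 5 fell, and the list's mean was 10.28 to 10.66 in the mutants and 11.80 to 12.28 in the controls. Sex is not among the labels used here, and by the level of Xist, an X-inactivation transcript of female cells, the mutants comprised 2 males and 1 female and the controls 1 male and 2 females.

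Of the 10 members, 2 rose in the mutant nerves, the transporter gene Slc16a1 and the aldolase gene Aldoc. None fell, and 8 did not pass (limma over all genes, Benjamini-Hochberg adjusted p under 0.05). At an unadjusted p under 0.05 there was 1 lower member, Slc16a7. Over all genes, 5.74% rose and 3.89% fell, 9.62% in all. The members' median difference was −0.12 on the log2 scale, against −0.020 over all genes, and their differences ran from −0.66 to 1.26. The 3 mutant values lay on one side of the 3 control values for 3 members, Slc16a1, Aldoc and Slc16a7, and for 28.1% of all genes.

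**Figure D1:**
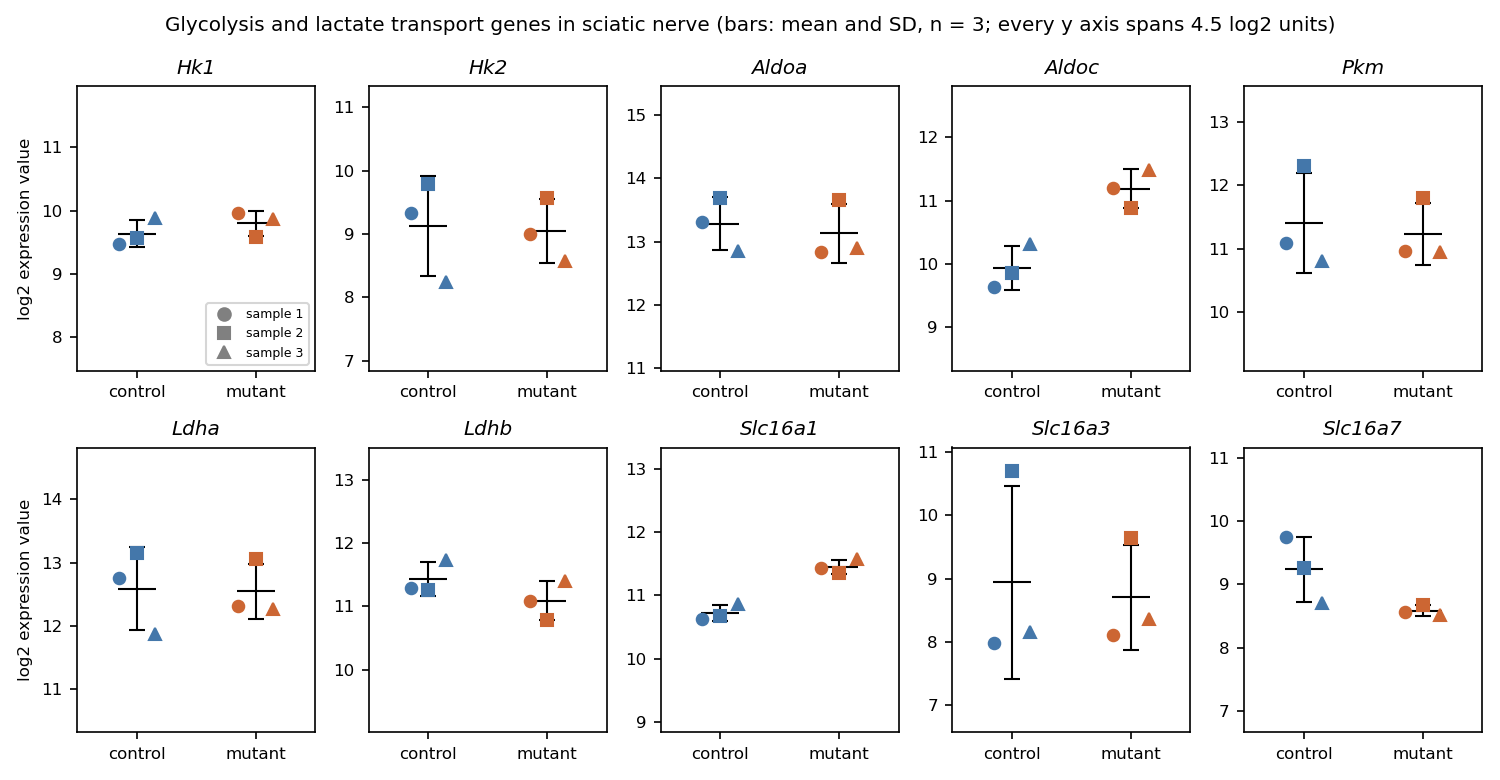
Log2 expression values of the 10 members in each control (blue) and mutant (orange) nerve; circles, squares and triangles mark samples 1, 2 and 3, and bars give mean and SD. Slc16a1 and Aldoc lie higher in all 3 mutants than in all 3 controls, while Hk2, Aldoa, Pkm, Ldha and Slc16a3 are highest in sample 2 of both groups.

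Slc16a1 encodes MCT1, a lactate transporter of many cells, glia among them. Its log2 values were 11.44, 11.35 and 11.57 across mutants 1 to 3, against 10.62, 10.68 and 10.86 across controls 1 to 3. The groups did not overlap: mutant 2, the lowest mutant, stood above control 3, the highest control. Means were 11.45 ± 0.11 and 10.72 ± 0.12 (SD, n = 3 each), a difference of 0.73 (SE 0.10, 95% confidence interval 0.49 to 0.97, 1.66-fold higher, limma adjusted p = 0.00636). With the mean of the 20 muscle genes as a covariate Slc16a1 and Aldoc remained the 2 members past the test (adjusted p = 0.0133 and 0.0232), in a fit where 8.65% of all genes passed. It passed under all 21 alternatives, which gave differences of 0.66 to 0.80.

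Slc16a3 encodes MCT4, the lactate exporter of glycolytic tissues such as fast muscle. It stood at 8.10, 9.65 and 8.35 across mutants 1 to 3, against 7.98, 10.69 and 8.15 across controls 1 to 3. Mutant 2 and control 2 were high and the other 4 nerves lay close together, so the groups overlapped. The difference was −0.24 with an interval from −2.05 to 1.58 (SE 0.76, adjusted p = 0.891), which includes a difference as large as that of Slc16a1. Without both samples numbered 2 the difference was 0.17 (SE 0.14, adjusted p = 0.491).

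Slc16a7 encodes MCT2, a transporter of high affinity for lactate that neurons use for uptake. Its values were 8.56, 8.68 and 8.51 across mutants 1 to 3, against 9.74, 9.26 and 8.71 across controls 1 to 3. All 3 mutants lay below all 3 controls, with control 3 the nearest to them. The difference was −0.66 (SE 0.24, interval −1.23 to −0.085), and it did not pass (limma adjusted p = 0.163). Within each group the nerves stood in the order of their adipocyte means, over a wider range in the controls than in the mutants. It passed under 5 of the 21 alternatives, among them without control 3 (difference −0.92, adjusted p = 0.0237) and with the adipocyte mean as a covariate (−0.43, adjusted p = 0.0321). Without control 1, the nerve richest in fat transcripts, the difference was −0.40 (adjusted p = 0.263).

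Aldolase cleaves fructose bisphosphate, and Aldoc is the isozyme best known from brain, where astrocytes express it. Aldoc stood at 11.20, 10.87 and 11.49 across mutants 1 to 3, against 9.63, 9.85 and 10.31 across controls 1 to 3. Every mutant value exceeded every control value. Means were 11.19 ± 0.31 and 9.93 ± 0.35, a difference of 1.26 (SE 0.22, interval 0.74 to 1.77, 2.39-fold higher, limma adjusted p = 0.0138). The call was lost without mutant 1 (difference 1.25, adjusted p = 0.0613) or mutant 3 (1.11, adjusted p = 0.0563). Between samples of the same number the differences were 1.57, 1.03 and 1.18.

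Aldoa is the isozyme of muscle and of most other tissues. Its values were 12.84, 13.66 and 12.89 across mutants 1 to 3, against 13.30, 13.69 and 12.86 across controls 1 to 3. The groups overlapped throughout, with the 2 nerves numbered 2 highest and almost equal. The difference was −0.15 (SE 0.28, interval −0.83 to 0.52, adjusted p = 0.805).

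Hexokinase traps glucose in the cell. Hk1, the general isozyme of brain and nerve, ran from 9.58 to 9.96 in the mutants and from 9.47 to 9.88 in the controls (difference 0.16, SE 0.15, adjusted p = 0.593). Leaving out 1 sample moved this difference between 0.078 (without control 1) and 0.28 (without control 3). Hk2, the insulin-responsive isozyme of muscle and fat, stood at 8.996, 9.57 and 8.58 across mutants 1 to 3, against 9.34, 9.80 and 8.25 across controls 1 to 3 (difference −0.08, SE 0.42, adjusted p = 0.936). Hk2 was highest in sample 2 and lowest in sample 3 of each group.

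Pkm encodes the pyruvate kinase isozymes M1 and M2, which splicing of one gene produces and which 1 gene-level value does not separate. It stood at 10.96, 11.80 and 10.95 across mutants 1 to 3, against 11.10, 12.31 and 10.81 across controls 1 to 3. The samples numbered 2 stood apart and the other 4 nerves lay between 10.81 and 11.10. The difference was −0.17 (SE 0.42, adjusted p = 0.859).

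Ldha encodes the subunit that prevails in glycolytic muscle. It stood at 12.32, 13.05 and 12.27 across mutants 1 to 3, against 12.75, 13.15 and 11.87 across controls 1 to 3 (difference −0.05, SE 0.36, adjusted p = 0.958). Control 3 was the lowest nerve and the 2 nerves numbered 2 were the highest. Ldhb, the subunit that prevails in oxidative tissues, stood at 11.08, 10.78 and 11.40 across mutants 1 to 3, against 11.29, 11.26 and 11.74 across controls 1 to 3. Mutant 3 exceeded 2 of the controls, so the groups overlapped. Each mutant was below the control of its number, by 0.21, 0.49 and 0.33, but the labels give no pairing. With the number as a block Ldhb did not pass (limma adjusted p = 0.108). The difference was −0.34 (SE 0.19, interval −0.80 to 0.12, adjusted p = 0.370), and −0.19 without mutant 2 or without control 3.

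The dependence on muscle content was examined next. In a fit of genotype plus the mean log2 value of the muscle list, 0 of the 10 members had a slope above 0 that passed (limma adjusted p under 0.05), and 2 did at an unadjusted p under 0.05, Pkm and Slc16a3, as did 2.94% of all genes. Over all genes 0.148% passed the adjusted threshold, or 30 genes, and 16 of these were members of the muscle list itself. The largest slope was that of Slc16a3, at 0.43 per unit of the muscle mean (SE 0.10, adjusted p = 0.570), and it was 0.26 without control 2. This rule therefore set no member apart. The slope was also taken on the mean of the linear muscle values, an alternative chosen after seeing the data. That mean was 218, 7080 and 1445 across mutants 1 to 3, against 225, 7878 and 1755 across controls 1 to 3, so this slope rests largely on the 2 samples numbered 2. With it 1 member passed, Slc16a3, which rose by 1.06 per SD of the muscle mean (SE 0.12, adjusted p = 0.0118), against 1.06% of all genes. Pkm had a slope of 0.55 (SE 0.094, adjusted p = 0.0709). With the adipocyte mean beside it 3 members passed, Slc16a3 at 1.05, Pkm at 0.53 (adjusted p = 0.0366) and Aldoa at 0.31 (adjusted p = 0.0319), against 1.36% of all genes, and Ldha had a slope of 0.32 (adjusted p = 0.0559).

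As a description without a test, 5 members were highest in sample 2 of both groups, namely Hk2, Aldoa, Pkm, Ldha and Slc16a3, as were 11% of all genes. Mutant 2 exceeded the mean of mutants 1 and 3 by 0.79 for Hk2, 0.80 for Aldoa, 0.85 for Pkm, 0.76 for Ldha and 1.42 for Slc16a3. In the controls the same quantity was 1.00, 0.62, 1.35, 0.84 and 2.63. These 5 genes are set apart by this pattern, which was chosen after seeing the data and rests on 1 nerve in each group. Of them only Slc16a3 also stood in the order of the muscle means within both groups. Hk2, Pkm and Ldha were lower in sample 3 than in sample 1 of each group, though the muscle mean was higher in sample 3. The other 5, Hk1, Aldoc, Ldhb, Slc16a1 and Slc16a7, were between 0.47 lower and 0.14 higher in sample 2 than in the mean of the other samples of its group.

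**Figure D2:**
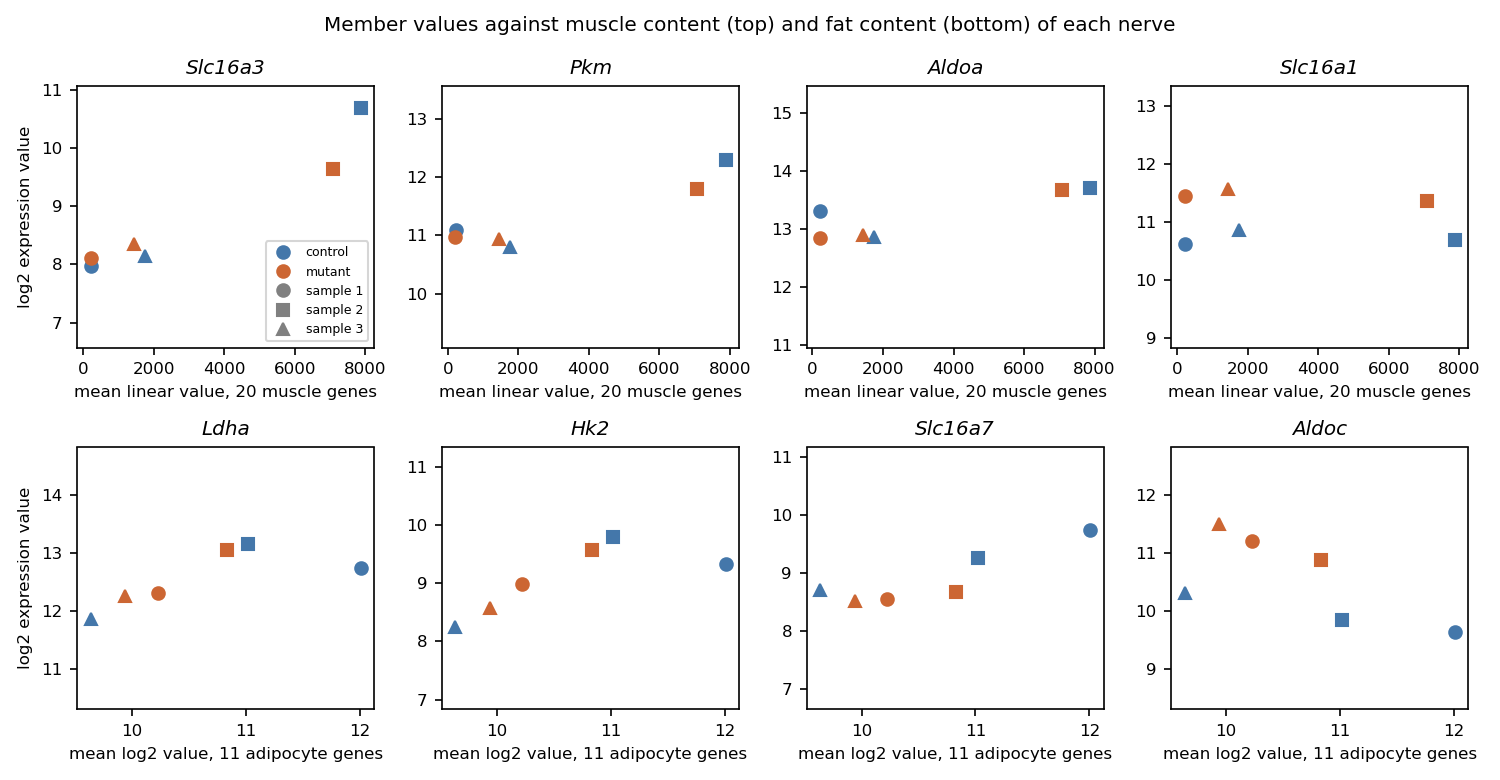
Log2 values of 4 members against the mean linear value of 20 muscle genes (top row) and of 4 members against the mean log2 value of 11 adipocyte genes (bottom row), 1 point per nerve, with colour for genotype and shape for sample number. Slc16a3, Pkm and Aldoa are highest in the 2 muscle-rich nerves, Slc16a1 is higher in each mutant than in each control, Ldha and Hk2 are lowest in control 3, which has the lowest adipocyte mean, and Slc16a7 is highest in control 1, which has the highest.

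Fat content was examined in the same way. Beside the log2 muscle mean, 0 members had a slope on the adipocyte mean that was above 0 and passed (limma), against 0.899% of all genes. At an unadjusted p under 0.05 there were 5 members, against 9.8% of all genes. The smallest adjusted p was that of Slc16a7 (0.0510). In the fit of genotype, linear muscle mean and adipocyte mean, the slope on the adipocyte mean was above 0 and passed for 2 members, Ldha at 0.42 (SE 0.061, adjusted p = 0.0457) and Slc16a7 at 0.41 (SE 0.054, adjusted p = 0.0378), against 1.23% of all genes. Hk2 had a slope of 0.52 (adjusted p = 0.0783) and Aldoc one of −0.33 (adjusted p = 0.0819). In this fit, which has few samples for its terms and was chosen after seeing the data, 2 members were higher in the mutants and 2 lower, where 8.05% of all genes were higher and 6.97% lower. Slc16a1 differed by 0.66 (SE 0.081, adjusted p = 0.00476) and Aldoc by 1.07 (SE 0.10, adjusted p = 0.00213). The lower ones were Ldhb at −0.49 (SE 0.11, adjusted p = 0.0382) and Slc16a7 at −0.43 (SE 0.084, adjusted p = 0.0235). Ldhb passed under this 1 of the 21 alternatives. Ldha stood at 0.22 in this fit, with an interval from −0.013 to 0.45 (adjusted p = 0.207), and the differences of Hk2, Aldoa and Ldha had the opposite sign to the fit without covariates.

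**Figure D3:**
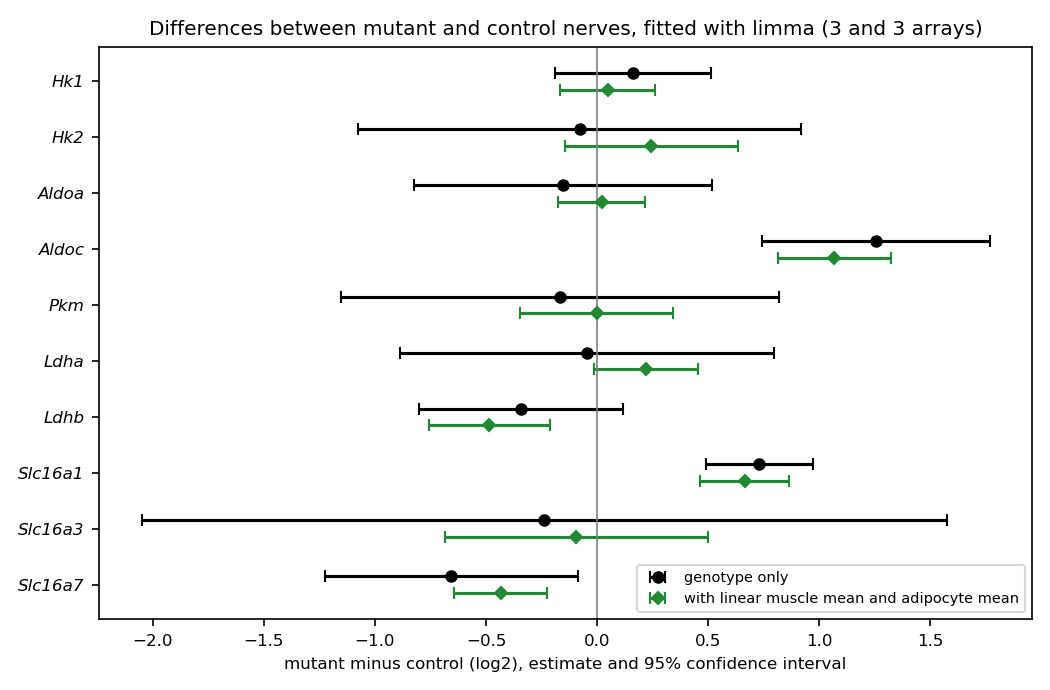
Mutant minus control difference of each member on the log2 scale with its 95% confidence interval, from a fit of genotype alone (black circles) and from a fit with the linear muscle mean and the adipocyte mean as covariates (green diamonds). Slc16a1 and Aldoc lie above 0 in both fits, and the intervals of Hk2, Aldoa, Pkm, Ldha and Slc16a3 are wide in the fit of genotype alone and include 0 in both.

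Whether isozymes of a pair differed unequally between genotypes was tested on the difference of their log2 values within each array, for 5 pairs. With 3 against 3 arrays the smallest two-sided p of an exact permutation test is 0.1, so no pair could pass. Slc16a7 relative to Slc16a1 differed by −1.39 between mutants and controls, with separate groups (−2.88, −2.67 and −3.05 against −0.88, −1.42 and −2.15, exact permutation p = 0.1, adjusted over the pairs 0.5). Aldoc relative to Aldoa differed by 1.41, and the groups overlapped because mutant 2 lay below control 3 (−2.79 against −2.54, exact permutation p = 0.2). Slc16a1 relative to Slc16a3 differed by 0.97 (exact permutation p = 0.5), but by 0.073 without control 2 and by 1.49 without mutant 2. Ldhb relative to Ldha differed by −0.30 (exact permutation p = 0.7) and Hk1 relative to Hk2 by 0.24 (exact permutation p = 0.9). The sign of the Hk1 and Hk2 contrast turned without mutant 3 or control 2, and that of the lactate dehydrogenase contrast without mutant 2 or control 3. Between samples of the same number, where the smallest two-sided p of the exact paired test is 0.25, Aldoc relative to Aldoa differed by 2.03, 1.06 and 1.14 and Slc16a1 relative to Slc16a3 by 0.69, 1.72 and 0.50. Slc16a7 relative to Slc16a1 differed by −2.00, −1.26 and −0.90. Each of these contrasts had one sign in all 3 pairs (exact paired p = 0.25 each). Those of the hexokinases and lactate dehydrogenases did not (exact paired p = 0.75 and 0.5). The labels give no pairing, and no contrast could pass this test. For Slc16a7 relative to Slc16a1, whose groups were separate, any pairing gives one sign.

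Other genes of the pathway were read from 5 lists holding 57 measured genes, of which 3 rose, 1 fell and 53 did not pass, where 5.74% of all genes rose and 3.89% fell. None of 11 other glycolytic enzymes passed (limma, and 2 at an unadjusted p under 0.05), with a median difference of −0.04. The enzyme with the smallest p was Pfkp, the platelet-type phosphofructokinase, at 0.46 (SE 0.15, adjusted p = 0.109), followed by the neuronal enolase Eno2 at 0.49 (adjusted p = 0.128). By the slope on the log2 muscle mean 2 of the 11 followed muscle content, the muscle enolase Eno3 (slope 0.97, adjusted p = 0.000366) and the muscle phosphoglycerate mutase Pgam2 (0.99, adjusted p = 0.0294), against the 0.148% of all genes given above. In the fit with the linear muscle mean 3 of the 11 did, against 1.06% of all genes, the phosphofructokinase Pfkm, the triose phosphate isomerase Tpi1 and Pgam2, the last with a slope of 2.22 per SD. These enzymes, and below Bsg, Pdp1, Pdk4, Hif1a, Epas1, Prkaa1, Pfkfb4 and Prkaa2, were chosen for naming after their values were seen.

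Of 8 partners of lactate transport 1 rose, Emb, which encodes embigin, an accessory protein that brings monocarboxylate transporters to the membrane. Emb stood at 7.35, 7.23 and 7.48 across mutants 1 to 3, against 6.98, 6.47 and 6.40 across controls 1 to 3. All mutants were above all controls, at a low level on these arrays (difference 0.74, SE 0.17, limma adjusted p = 0.0367). Leaving out any single sample except control 1 ended the call, with adjusted p from 0.0598 to 0.149. Basigin, the better known partner of MCT1 encoded by Bsg, was at 12.23 to 12.42 in the mutants and 12.15 to 12.19 in the controls (difference 0.16, adjusted p = 0.324).

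Of 12 genes of glucose entry and glycogen 2 rose. Slc2a1 encodes GLUT1, the glucose transporter of barrier cells, and stood at 13.06, 12.78 and 13.06 across mutants 1 to 3, against 12.04, 11.94 and 12.41 across controls 1 to 3. The groups were separate (difference 0.84, SE 0.15, adjusted p = 0.0153), and the call was lost without mutant 1 (adjusted p = 0.0753) or mutant 3 (0.0755). Pgm2, a phosphoglucomutase family member, rose by 0.53 (SE 0.12, adjusted p = 0.0412), and this call was lost without mutant 1, mutant 3, control 2 or control 3, with adjusted p from 0.101 to 0.167. It was also lost with median centring (0.0595) and repeated quantile normalization (0.0533), and without both samples numbered 2 (0.0855). Of 12 genes of pyruvate fate 1 fell, Pdp2, a phosphatase that activates pyruvate dehydrogenase. It stood at 7.27, 7.44 and 7.30 across mutants 1 to 3, against 8.20, 8.19 and 8.35 across controls 1 to 3, with every mutant below every control. Its difference of −0.91 (SE 0.091, adjusted p = 0.00183) passed under all 21 alternatives. In this list 3 genes had an unadjusted p under 0.05. The others were Pdp1, the second such phosphatase, with mutants above controls (0.63, adjusted p = 0.131), and Pdk4, a kinase that inactivates pyruvate dehydrogenase, with mutants below controls (−1.63, adjusted p = 0.103).

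None of 14 regulators passed (limma, and 3 at an unadjusted p under 0.05). The one with the smallest p was Myc, a transcription factor that induces glycolytic genes, at 10.68, 9.81 and 9.94 across mutants 1 to 3, against 9.32, 9.29 and 8.62 across controls 1 to 3. The groups were separate, and the difference of 1.07 (SE 0.28) had an adjusted p of 0.0620. Hif1a, which encodes a hypoxia-inducible factor subunit, differed by −0.24 (adjusted p = 0.303). Epas1, which encodes another such subunit, differed in the other direction, by 0.25 (adjusted p = 0.390). Epas1 was called higher in the fit with the linear muscle mean and the adipocyte mean as covariates. With the replicate number as a block the 57 genes gave 5 rises and 3 falls. Over all 20239 genes that fit gave 1205 rises and 842 falls. The block added Myc and Pfkp to the higher genes and the regulators Pfkfb4 and Prkaa2 to the lower ones.

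**Figure D4:**
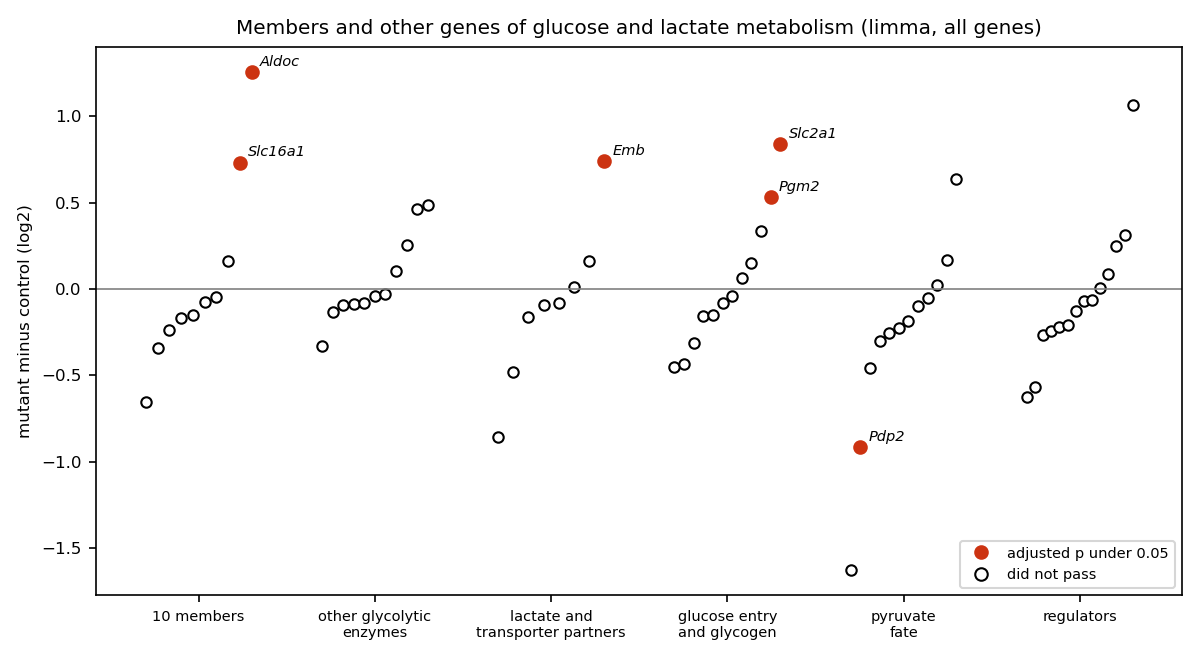
Mutant minus control difference on the log2 scale for each of the 10 members and for the measured genes of 5 related lists, sorted within a list; filled red points passed limma at an adjusted p under 0.05 and carry their names, and open points did not. The points past the test are 2 members and 4 other genes, and the median of the members lies at −0.12.

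Markers of some other nerve cells moved with these calls. Of 6 perineurial markers 4 rose, and the list's mean was 10.87 to 11.05 in the mutants and 9.81 to 10.13 in the controls. Of 7 fibroblast markers 4 rose, with means of 12.35 to 12.59 and 11.91 to 12.10. Perineurial and endothelial cells of nerve are known to express Slc2a1, and the part of these markers in the rises was not tested. In whole nerve, more cells of a type and more RNA per cell cannot be told apart. The adipocyte mean differed by −0.56 between the group means, in the same direction as Slc16a7. The macrophage list had 0 of 7 members past the test (limma, and 3 at an unadjusted p under 0.05). Of 8 endothelial markers 0 rose and 1 fell (limma, and 4 at an unadjusted p under 0.05), with means of 10.16 to 10.26 in the mutants and 10.12 to 10.55 in the controls. Of 7 neuron and axon markers 0 rose and 1 fell (limma, and 1 at an unadjusted p under 0.05).

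The genes whose values over the 6 arrays were most like those of Slc16a1, by the root mean square difference of centred log2 values, were Klf12 (0.039), Lamb2 (0.053) and Lrrc49 (0.056). Their differences were 0.71, 0.69 and 0.64. Those most like Aldoa were Atp5o (0.054), Gm5523 (0.059) and Hoxd10 (0.066), with differences of −0.15, −0.19 and −0.20. Differences close to those of Slc16a1 and Aldoa follow from the way these genes were picked and are no separate result.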

How the data were processed

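RNA of each nerve was hybridised to an Affymetrix array read in 1 colour, after whole-transcript labelling per the labels. The deposited values are on a log2 scale, a base inferred from their range of 3.55 to 14.52, with a single value for each probe set and mouse. How the authors corrected, normalized and summarised them was not given in the sources used here. In the submitters' processing notes limma is listed, with no step named. Array medians were 7.995 to 8.08. Arrays have no read depth, their number limits the precision, and the fold change of a dim gene is compressed. The platform annotation named 20239 of 21225 probe sets by 1 symbol, 0 by several and left 986 unnamed. No genome build is given for the table.

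Genotype was tested gene by gene (limma 3.58.1, R 4.3.3, lmFit and eBayes, two-sided), as mutant minus control, with Benjamini-Hochberg adjustment over the 20239 named genes. The 10 members and the lists were chosen with earlier results of these data known, and genes outside the named-gene rule are marked. The rule named the members, Zeb2, other glycolytic enzymes that passed, and in each other list up to 4 genes that passed with separate groups or the one with the smallest p, and the 3 genes most like Slc16a1 and Aldoa. The labels call the samples biological replicates. Deviations from group means correlated at 0.36, 0.574 and 0.295 between samples of the same number, each over 0.1. On that ground alone the number was used as a block in an alternative. The labels give no pairing, and these correlations cannot establish one. Mutant 1 correlated with control 3 at 0.303, above the same-number value of 0.295. The value of 0.574 belongs to the nerves rich in muscle transcripts, and the part of muscle content in it was not tested. Slopes on marker means, replicate block, left-out samples, scaling, priors and filters were alternatives. The fit was also run on simulated data with noise independent between genes, and the outcome is not reported here. The simulated genotype test held no muscle or fat variation shared between genes. Promoters came from RefSeq, assembly GRCm38.p6. Slc16a7 had no entry. Figures were drawn with matplotlib 3.10.9.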

Additional observations from a re-analysis of the deposited data

How the results depend on the processing

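With 3 arrays a group, only differences well above the spread between nerves could pass, and genes that follow muscle or fat had wide intervals. Slc16a1 passed under all 21 alternatives and Aldoc under 19. With the replicate number as a block the members called stayed at 2 higher and 0 lower, all genes called numbered 2047, and the other pathway genes called were 5 higher and 3 lower. In the paired form of the isozyme comparisons the mean differences were the same by construction. Covariate fits other than that of the log2 muscle mean alone or the adipocyte mean alone were chosen after seeing the data. Where a value moved, the cause was not tested.

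Leaving out 1 sample at a time gave 896 to 2021 genes called, 502 to 1397 higher and 392 to 744 lower. It gave 1 to 2 members higher and 0 to 1 lower, and 0 to 3 other pathway genes higher and 1 to 4 lower. The lowest totals came without mutant 1 (896) and mutant 3 (910), each with 1 member higher. The Zeb2 difference ran from −0.97 to −0.74 and missed the threshold without mutant 1 (−0.92). Differences that changed sign ran from −0.52 to 0.26 for Hk2, from −0.42 to 0.052 for Aldoa, from −0.46 to 0.29 for Pkm, from −0.41 to 0.24 for Ldha and from −0.72 to 0.64 for Slc16a3. Slopes on the muscle mean that changed sign ran from −0.091 to 0.011 for Hk1, from −0.095 to 0.064 for Aldoc, from −0.092 to 0.024 for Ldhb, from −0.030 to 0.022 for Slc16a1 and from −0.091 to 0.063 for Slc16a7. The isozyme contrast of Hk1 over Hk2 ran from −0.13 to 0.80, and that of Ldhb over Ldha from −0.66 to 0.22.

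Without both samples numbered 2, 453 genes were lower, and the differences of Pkm and Slc16a3 were 0.0032 and 0.17. With the adipocyte mean as a covariate 1190 genes and 1 member were lower, and the differences were 0.24 for Hk2, 0.019 for Aldoa and 0.22 for Ldha. With the log2 muscle mean beside it 1289 genes and 1 member were lower, 6 other pathway genes were higher, and the differences were 0.30 for Hk2, 0.077 for Aldoa, 0.089 for Pkm, 0.28 for Ldha and 0.089 for Slc16a3. With the linear muscle mean beside it 3040 genes were called, 1410 of them lower, with 2 members lower, 7 other pathway genes higher and 2 lower, and the differences were 0.25 for Hk2, 0.021 for Aldoa and 0.22 for Ldha. The linear muscle mean alone gave 2 other pathway genes lower, as did 16 added to the linear values. Sex, read from Xist, as a covariate gave 0.024 for Hk2 and 0.066 for Ldha. Array weights gave 3655 genes, 2411 higher and 1244 lower, with 1 member lower, 7 other pathway genes higher and 5 lower. Members that followed muscle numbered 0 by the slope on the log2 mean. They also numbered 0 by that slope on 6 muscle markers or beside the adipocyte mean. They numbered 1 by order and span, 1 by the linear slope and 3 by the linear slope beside fat. Being highest in sample 2 of both groups held for 5 members, and this pattern does not show that a gene followed muscle content in the other nerves.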
